A study of Mus musculus with 6 samples.

Results

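The 42 genes described here mark the phases of the cell division cycle, from the cyclins of G1 through DNA replication to mitosis and cytokinesis. They were taken by symbol from a table of 24062 gene symbols measured by RNA-seq in mouse heart ventricles, and all 42 were in the table and passed the filter on low counts, which 13629 genes passed. By the rule that defined them, 11 are replication genes and stood apart from 27 mitosis genes. The remaining 4, Ccnd1, Ccnd2, Cdk4 and Cdk2, belong to G1 or to its end and were kept as a class of their own. Both ventricles of male C57/Bl6N mice were sampled at 1 day of age, with 3 libraries from controls without Cre (CreNEG) and 3 from mice with a cardiac-specific Med12 knockout (Med12cKO, CrePOS). Cre was present in the Med12cKO group alone, so its own effect and that of Med12 loss cannot be told apart in these libraries. The promoter that drives Cre, the Med12 allele of the controls and any pooling of animals are not stated in the labels.

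As background, a dividing cell passes through G1, copies its DNA in S phase, and after G2 separates its chromosomes in mitosis. Cyclin D with CDK4, then cyclin E with CDK2, release E2F factors from the retinoblastoma family, and E2F switches on the replication genes. The mitosis genes are switched on later by the MuvB complex with B-MYB and FOXM1, often through a promoter element called the cell cycle genes homology region (CHR). Heart muscle cells of newborn mice still cycle and then leave the cycle in the first days of life, many of them after a division of the nucleus without cytokinesis, while fibroblasts, endothelial cells and blood cells of the heart keep dividing.

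The promoters of the classes differ in these elements, and 6 are shown because they carry them clearly. RefSeq windows on GRCm38.p6, from 250 bases before to 50 bases after an annotated start, were found for 32 of the 42 genes. Each line gives the 190 bases before the start, 5′ to 3′ on the strand of the gene. Capitals mark matches on either strand to the CHR, spelled TTTGAA, to the box CCAAT bound by NF-Y, and to E2F sites. An E2F site was taken as TTGGCGC, and also as the variant with the letters TTCCCGC, the variant with the letters TTCGCGC and the variant with the letters TTGCCGC. Matches on opposite strands may overlap.
Cdk1, chr10:69352913-69353102, minus strand: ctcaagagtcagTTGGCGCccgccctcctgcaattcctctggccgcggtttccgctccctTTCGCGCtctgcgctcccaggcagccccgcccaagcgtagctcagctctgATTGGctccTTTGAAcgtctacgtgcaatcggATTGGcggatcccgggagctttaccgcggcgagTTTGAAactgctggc
Cdc20, chr4:118437344-118437533, minus strand: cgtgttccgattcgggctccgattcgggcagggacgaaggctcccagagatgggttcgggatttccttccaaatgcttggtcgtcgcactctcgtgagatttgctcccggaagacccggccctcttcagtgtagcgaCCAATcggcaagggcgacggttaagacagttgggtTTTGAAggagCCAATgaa
Top2a, chr11:99024190-99024379, minus strand: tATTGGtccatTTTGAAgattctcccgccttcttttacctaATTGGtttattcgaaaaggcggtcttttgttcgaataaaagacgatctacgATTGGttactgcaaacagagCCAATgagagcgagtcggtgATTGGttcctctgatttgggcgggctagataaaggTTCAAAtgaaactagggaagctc
Ube2c, chr2:164769739-164769928, plus strand: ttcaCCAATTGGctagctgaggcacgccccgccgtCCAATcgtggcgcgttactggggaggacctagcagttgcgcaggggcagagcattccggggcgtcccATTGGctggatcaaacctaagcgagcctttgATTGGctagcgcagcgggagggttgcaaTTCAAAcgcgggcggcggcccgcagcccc
Mcm5, chr8:75109319-75109508, plus strand: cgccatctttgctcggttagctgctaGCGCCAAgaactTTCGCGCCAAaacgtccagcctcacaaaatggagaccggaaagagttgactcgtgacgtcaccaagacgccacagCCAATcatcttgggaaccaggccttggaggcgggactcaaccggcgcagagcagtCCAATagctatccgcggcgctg
Mcm6, chr1:128359706-128359895, minus strand: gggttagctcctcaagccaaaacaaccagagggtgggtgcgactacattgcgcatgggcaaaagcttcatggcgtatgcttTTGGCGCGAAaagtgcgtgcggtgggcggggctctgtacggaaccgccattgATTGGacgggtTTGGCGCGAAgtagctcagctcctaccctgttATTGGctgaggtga

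The Cdk1, Cdc20, Top2a and Ube2c windows hold CHR matches together with CCAAT boxes, and the Mcm5 and Mcm6 windows hold E2F matches with CCAAT boxes and no CHR. E2F matches are also in the Cdk1 window. Over the whole 300-base window a CHR match was found in 16 of 21 mitosis genes with a window (76.2%) and in 1 of 9 replication genes, Mcm2 (11.1%). The share was 17.9% of all 32851 RefSeq promoter windows and 13.8% of the 10193 genes that passed the count filter and had a window. CCAAT boxes were found in 18 of 21 mitosis genes (85.7%) and 6 of 9 replication genes (66.7%), against 37.4% of all windows. E2F matches were found in 4 of 9 replication genes (44.4%) and 4 of 21 mitosis genes (19%), against 9.57% of all windows and 19.3% of the genes that passed the filter. Matches to different motifs overlapped in Ect2 and Ccnb1, where an E2F match ran into a CCAAT box. In the mitosis genes that are no members, from a list of 45 such genes, 26 of 40 windows held the CHR (65%), and in 29 other replication genes 19 held an E2F match (65.5%). A match is a run of letters and does not show that a factor binds there.

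**Figure D1:**
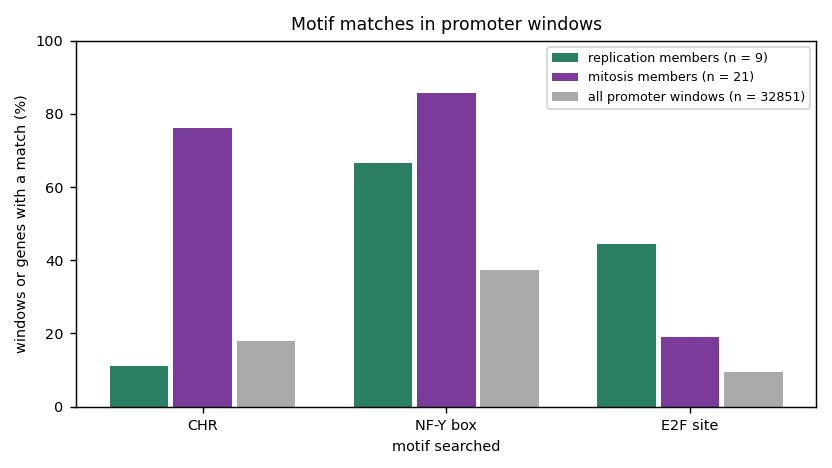
Share of genes whose 300-base promoter window holds each motif (%, y axis), for 9 replication genes, 21 mitosis genes and, in grey, all 32851 windows. The CHR stands at 76.2% of mitosis genes and 11.1% of replication genes, beside 17.9% of all windows. The NF-Y box is the CCAAT box.

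Levels are read counts scaled to library size with TMM factors (CPM), mean ± SD over n = 3 libraries a group, and fold changes are Med12cKO against control on the log2 scale. Totals per library ran from 8453346 to 10911698 counts, and the lowest count of any member in any library was 46. Med12, the target, measured 103, 176 and 113 CPM in controls 1 to 3 and 61.6, 85.0 and 41.3 CPM in Med12cKO 1 to 3. Its groups did not overlap, and the log2 fold change was −1.06 with an SE of 0.30 (adjusted p in edgeR = 0.765, in DESeq2 = 0.0246). The exons deleted are not stated in the labels. The cardiomyocyte marker Tnnt2 ranged from 5431 to 8810 CPM over the 6 libraries.

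In 2 libraries, control 3 and Med12cKO 1, transcripts of thymus T cells were present, and these are also the libraries with the most cell cycle transcripts. All 18 genes of a T cell and thymus list were higher in both of them than in any of the other 4. The list averaged 58.0 CPM (control 3) and 58.8 CPM (Med12cKO 1) in the pair, where the other 4 libraries were between 0.986 and 1.15 CPM. The defining T cell genes Cd3d, Cd3e and Cd3g were at or near 0 in the other libraries: Cd3e measured 31.2 and 29.5 CPM in the pair and at most 0.197 CPM elsewhere. Each group holds 1 such library. Fold changes of single genes below are from all 6 libraries unless stated, and class medians and counts are also given without the pair. How much of the cell cycle signal in these 2 libraries comes from thymus cells was not tested.

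None of the 42 genes passed the test between Med12cKO and control ventricles. In edgeR's quasi-likelihood test with Benjamini-Hochberg adjustment over all genes, 0 members were called, beside 3 of all 13629 genes tested (0.022%, with 0.00734% higher and 0.0147% lower), and the lowest adjusted p of a member was 0.9999. At an unadjusted p under 0.05 there was 1 member, Ccnd2, beside 3.78% of all genes (2.16% higher and 1.61% lower). DESeq2 called 0 members as well, beside 65 of all genes (0.477%), with 1 member at an unadjusted p under 0.05, beside 3.4% of all genes. In no member did the 3 Med12cKO libraries lie all above or all below the 3 controls, which 8.23% of all genes did (4.59% higher and 3.64% lower). The log2 fold change was above 0 in 41 of the 42, and in 52.2% of all genes, with a median of 0.19 over the members and 0.01 over all genes. The replication and mitosis members moved together from library to library, so their signs are not separate observations of the groups. The 4 G1 members did not share that pattern.

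**Figure D2:**
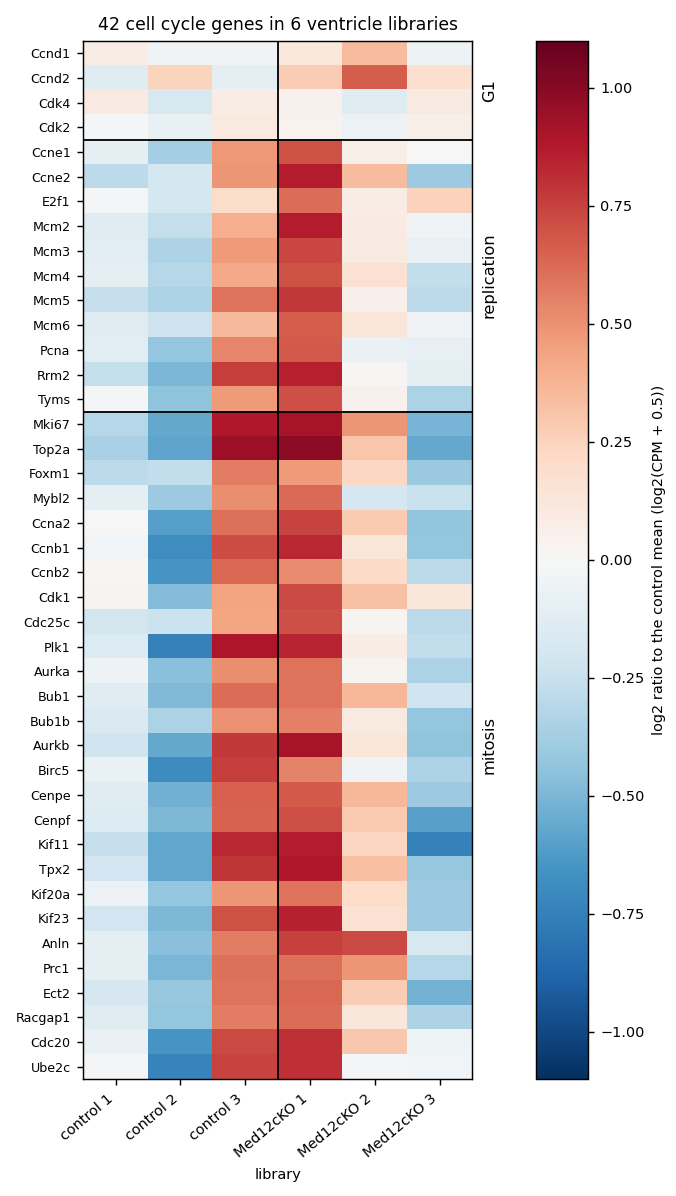
Log2 ratio of each of the 42 genes (rows) to its control mean in the 6 libraries (columns), on log2(CPM + 0.5), red for higher and blue for lower. Replication and mitosis genes are red in control 3 and Med12cKO 1 and mostly blue in control 2, whereas the G1 rows do not follow this pattern.

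The G1 genes varied least. Cyclin D2 (Ccnd2, chromosome 6, 127125162 to 127152193, minus strand), a partner of CDK4 that promotes division of heart muscle cells, measured 197, 256 and 201 CPM in controls 1 to 3 and 262, 343 and 245 CPM in Med12cKO 1 to 3. Med12cKO 1 and 2 lay above every control, and Med12cKO 3 lay between the controls. The means were 218 ± 32.9 and 284 ± 52.5 CPM, with a log2 fold change of 0.38 (SE 0.17, 95% interval 0.01 to 0.75; edgeR adjusted p = 0.9999, unadjusted p = 0.046). Ccnd2 did not follow the thymus libraries: control 3 was 0.889 times the mean of controls 1 and 2, and Med12cKO 1 was 0.891 times the mean of Med12cKO 2 and 3. The ratio of Med12cKO to control was 1.30 both between the pair with thymus transcripts and between the means of the other 4 libraries. The log2 fold change did depend on other libraries. It was 0.22 (SE 0.15) without Med12cKO 2 and 0.51 (SE 0.18) without control 2. In the 4 libraries with letter I in their description it was 0.16 (SE 0.16).

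Cyclin D1 (Ccnd1) measured 139, 127 and 127 CPM in controls and 142, 167 and 126 CPM in Med12cKO, so the groups overlapped. Cdk4, the kinase that cyclin D activates, was at 185 ± 19.3 and 185 ± 15.5 CPM, and the 95% interval of its log2 fold change ran from −0.28 to 0.29. Cdk2, the partner of cyclins E and A, was at 98.0 ± 6.70 and 98.9 ± 4.43 CPM (95% interval −0.23 to 0.26).

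The replication genes all measured highest in Med12cKO 1, and 10 of the 11 lowest in control 2. Over all genes tested, 14.5% were highest in Med12cKO 1 and 13.8% lowest in control 2. The MCM genes encode subunits of the helicase that opens DNA at replication origins. Mcm2 (chromosome 6, 88883474 to 88898780, minus strand) measured 43.7, 39.8 and 63.2 CPM in controls and 87.5, 51.2 and 46.7 CPM in Med12cKO. Mcm6 measured 65.5, 61.2 and 92.0 CPM in controls and 114, 78.7 and 69.6 CPM in Med12cKO. In both genes Med12cKO 2 and 3 stood above controls 1 and 2 but below control 3. Their log2 fold changes were 0.34 (SE 0.27) and 0.26 (SE 0.22), within the spread between libraries. Mcm3, Mcm4 and Mcm5 had log2 fold changes of 0.26, 0.22 and 0.18, with Mcm5 at 35.2, 33.0 and 64.0 CPM in controls and 72.4, 43.7 and 34.3 CPM in Med12cKO.

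Pcna, the sliding clamp of the DNA polymerases, measured 38.3, 30.7 and 60.5 CPM in controls and 66.5, 39.3 and 38.8 CPM in Med12cKO. Rrm2, the subunit of ribonucleotide reductase that is made in S phase, measured 51.7, 43.4 and 105 CPM in controls and 112, 62.6 and 57.3 CPM in Med12cKO. These genes for the fork and for nucleotide supply showed the same order, with the thymus library of each group on top. Tyms, which makes thymidylate, measured 11.97, 8.86 and 17.02 CPM in controls and 20.3, 12.6 and 9.47 CPM in Med12cKO. The log2 fold changes of Pcna, Rrm2 and Tyms were 0.16 (SE 0.31), 0.21 (SE 0.43) and 0.16 (SE 0.32).

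E2f1, the transcription factor at the start of S phase, differed least between thymus and other libraries among the replication genes. It measured 19.4, 17.1 and 22.7 CPM in controls and 30.2, 20.7 and 23.5 CPM in Med12cKO, and its log2 fold change was 0.33 (SE 0.18). Med12cKO 1 and 3 were above every control, and Med12cKO 2 was between them. Cyclin E1 (Ccne1) was at 8.45 ± 2.79 and 10.1 ± 3.05 CPM and cyclin E2 (Ccne2), its paralog, had a log2 fold change of 0.33 (SE 0.35). Of the exon bases of Ccne2, 17.4% are shared with a gene on the other strand, and reads of the pair may not be separable. As a class the 11 replication genes had log2 fold changes between 0.16 and 0.34, with a median of 0.26 (median SE 0.29).

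**Figure D3:**
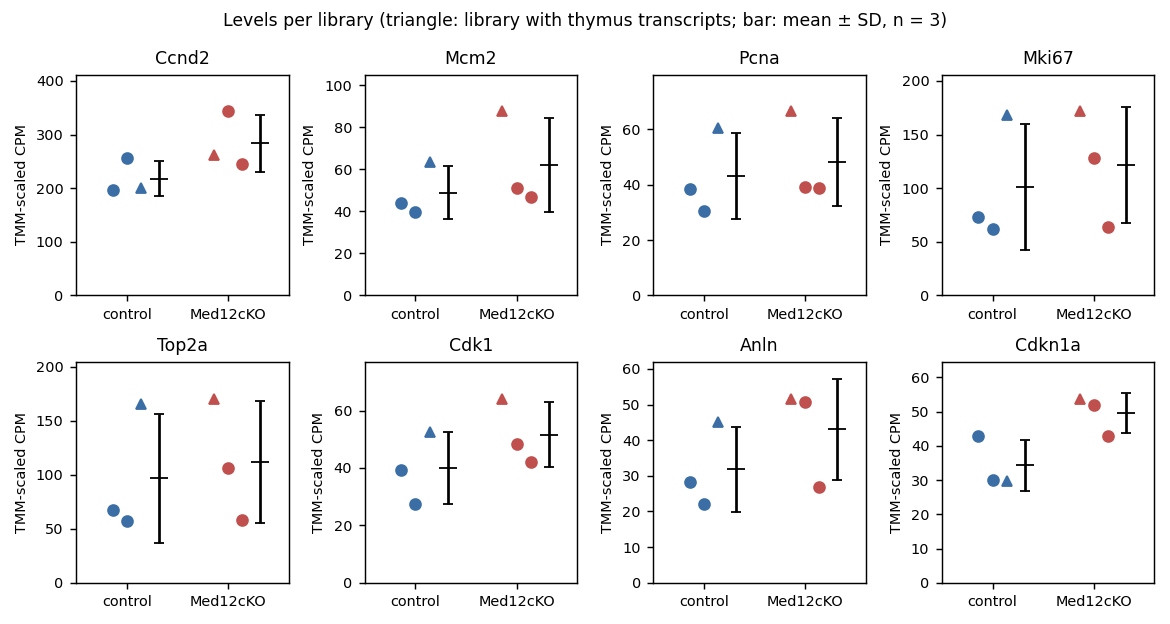
TMM-scaled CPM of 8 genes in each library (y axis from 0), control in blue and Med12cKO in red, with triangles for the libraries with thymus transcripts and black bars for the mean ± SD, n = 3. In Mki67 and Top2a the triangles of both groups sit at nearly the same height, 168 and 172 CPM for Mki67. In Ccnd2 the triangles are not the highest points.

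The mitosis genes had the widest spread between libraries of one group. Mki67 (chromosome 7, 135689784 to 135716361, minus strand), the coat of mitotic chromosomes and the usual stain for cycling cells, measured 73.3, 61.5 and 168 CPM in controls and 172, 128 and 63.9 CPM in Med12cKO. Top2a, the topoisomerase that untangles sister chromatids, measured 67.3, 57.3 and 165 CPM in controls and 171, 106 and 58.2 CPM in Med12cKO. Each group thus held libraries near both ends of the range. The log2 fold changes of 0.26 (SE 0.54) and 0.21 (SE 0.59) had 95% intervals of −1.12 to 1.64 and −1.30 to 1.72. The factors that switch on mitosis genes were at log2 fold changes of 0.08 for Foxm1 (SE 0.30) and 0.07 for Mybl2, which encodes B-MYB (SE 0.33).

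Among the genes of mitotic entry, Cdk1, the kinase that drives it, had the largest log2 fold change, 0.37 (SE 0.25). Cdk1 (chromosome 10, 69335146 to 69352938, minus strand) measured 39.5, 27.5 and 52.6 CPM in controls and 64.2, 48.4 and 42.2 CPM in Med12cKO. All 3 Med12cKO libraries were above controls 1 and 2, and 1 was above control 3. Its partner cyclin B1 (Ccnb1) measured 12.9, 8.003 and 21.9 CPM in controls and 23.8, 14.5 and 9.69 CPM in Med12cKO. The cyclins Ccna2 and Ccnb2 had log2 fold changes of 0.19 and 0.09, and Cdc25c, the phosphatase that activates CDK1, 0.19. The mitotic kinases Plk1 and Aurka were at 0.13 (SE 0.49) and 0.09 (SE 0.31). Plk1 showed a control range from 10.2 to 32.6 CPM, 3.20-fold, the widest of any member within the controls.

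Genes of the kinetochore, spindle checkpoint and chromosomal passenger complex had log2 fold changes from −0.02 to 0.22. Birc5, which encodes the passenger protein survivin, was the one member below 0. It measured 28.2, 18.2 and 50.4 CPM in controls and 43.5, 28.8 and 23.2 CPM in Med12cKO, so that its log2 fold change was −0.02 (SE 0.41). Aurkb, the kinase of the same complex, was at 0.19 (SE 0.48), the checkpoint kinase genes Bub1 and Bub1b at 0.22 and 0.08, and the large kinetochore proteins Cenpe and Cenpf at 0.20 and 0.15. Survivin and Aurora B act in 1 complex, and the difference between their values was not tested. The spindle genes Kif11, a motor that pushes the poles apart, and Tpx2, which activates Aurora A, were at 0.13 (SE 0.56) and 0.24 (SE 0.48).

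The cytokinesis genes included the largest log2 fold change of all members. Anln (chromosome 9, 22332012 to 22389188, minus strand), the scaffold of the contractile ring, measured 28.2, 22.0 and 45.1 CPM in controls and 51.6, 50.7 and 26.8 CPM in Med12cKO. Med12cKO 1 and 2 lay above every control, and Med12cKO 3 lay between controls 1 and 2. The log2 fold change was 0.44 (SE 0.34, 95% interval −0.36 to 1.23; edgeR unadjusted p = 0.236). Prc1, which bundles the midzone microtubules, was at 0.24 (SE 0.35). The other midzone and furrow genes, the kinesins Kif20a and Kif23 together with Ect2 and Racgap1, were between 0.12 and 0.20. Cdc20 and Ube2c, which target cyclins for destruction at the end of mitosis, were at 0.29 (SE 0.39) and 0.19 (SE 0.43). Over the 27 mitosis genes the median log2 fold change was 0.19 (median SE 0.37).

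**Figure D4:**
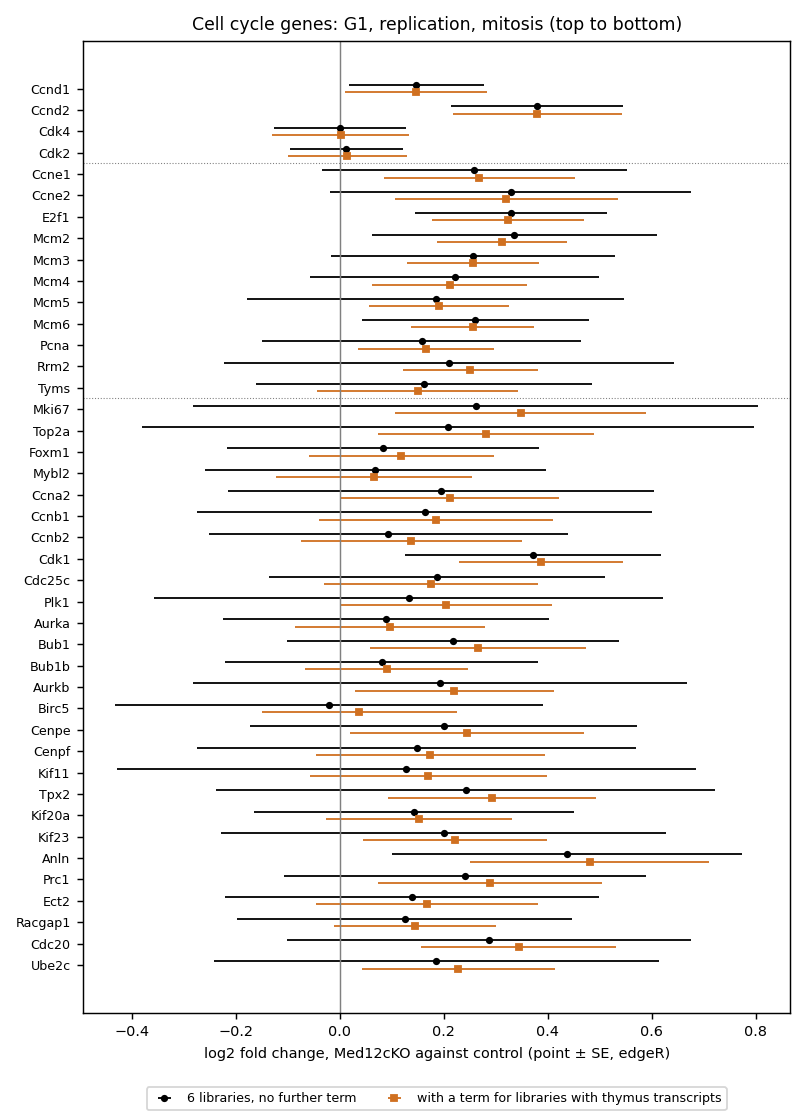
Log2 fold change of Med12cKO against control for each of the 42 genes (points, with bars of 1 SE), from edgeR on the 6 libraries (black) and from a fit that also holds a thymus term (orange). Points move little, by class median from 0.26 to 0.26 for replication and from 0.19 to 0.21 for mitosis, and the bars of replication and mitosis genes shorten. With 1 thymus library in each group, the design itself keeps the points close.

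Most of the spread in replication and mitosis genes lay between libraries of the same group. The median log2 ratio of the mitosis genes to the control mean was −0.13, −0.50 and 0.63 in controls 1 to 3 and 0.71, 0.23 and −0.40 in Med12cKO 1 to 3. For the replication genes it was −0.13, −0.34 and 0.47 in controls and 0.71, 0.08 and −0.09 in Med12cKO. The G1 genes stayed between −0.06 and 0.15 in all 6 libraries. Within controls the highest library exceeded the lowest by a median of 2.32-fold in mitosis genes, 1.76-fold in replication genes and 1.18-fold in G1 genes. Within Med12cKO the same ranges were 2.01-fold, 1.87-fold and 1.25-fold. Over the 6 libraries the median correlation of log2 levels was 0.957 between pairs of mitosis genes, 0.952 between pairs of replication genes and 0.925 across the classes. Those correlations rest on 6 libraries that share the thymus pair, and are given as a description.

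**Figure D5:**
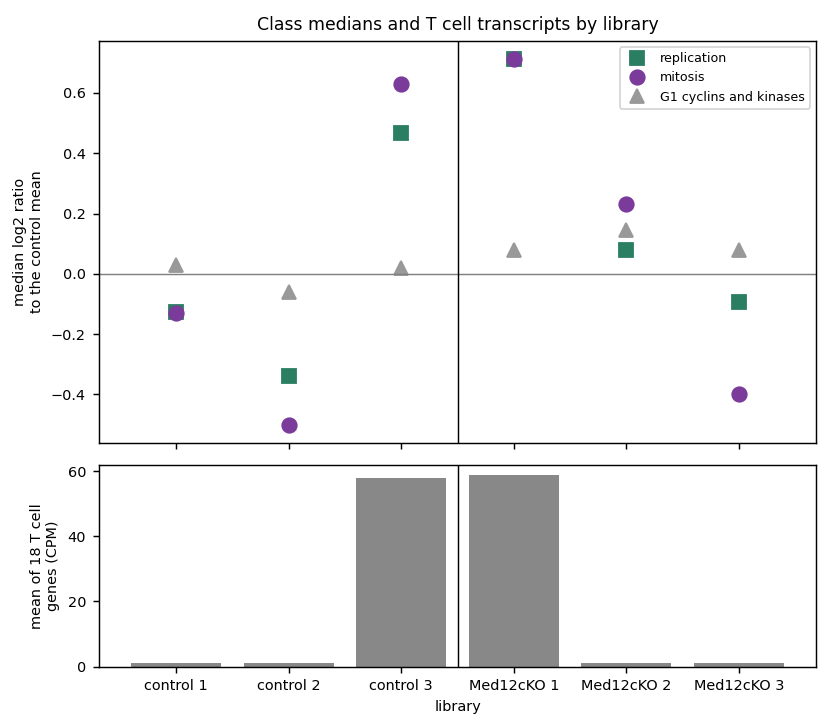
Median log2 ratio to the control mean of the replication, mitosis and G1 genes in each library (upper panel), above the mean CPM of 18 T cell genes in the same library (lower panel). The replication and mitosis medians of 0.47 to 0.71 are those of control 3 and Med12cKO 1, the libraries at 58.0 and 58.8 CPM of T cell genes, while the G1 medians stay between −0.06 and 0.15.

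The thymus library stood above the other 2 of its own group in every replication and mitosis gene, in controls and in Med12cKO. Of all 13629 genes tested, 4119 stood so in controls and 3479 in Med12cKO. Control 3 exceeded the mean of controls 1 and 2 by a median of 1.91-fold in the mitosis genes and 1.64-fold in the replication genes, with Top2a at 2.65-fold and E2f1 at 1.24-fold as the extremes. Med12cKO 1 exceeded the mean of Med12cKO 2 and 3 by 1.71-fold and 1.70-fold. Between the pair, Med12cKO 1 was above control 3 in all 11 replication genes (median ratio 1.21) and in 22 of 27 mitosis genes (median ratio 1.04). The same held for 6914 of the 13629 genes tested (median ratio 1.002). This compares single libraries and has no replicates.

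Without the pair, 2 Med12cKO libraries faced 2 controls. The log2 fold change was then above 0 in all 42 members and in 50.9% of all genes, with medians of 0.22 for replication, 0.26 for mitosis and 0.09 for G1 genes. Med12cKO 2 was above both controls in 39 members, while Med12cKO 3 was above both in 11, between them in 23 and below both in 8. Over all genes tested, Med12cKO 2 was above both in 36%, and Med12cKO 3 was above both in 37.2% and below both in 35.5%. The members' share above both was thus larger than over all genes in Med12cKO 2. In Med12cKO 3 the classes differed, with 7 of 11 replication genes and 2 of 27 mitosis genes above both. The first share was larger than over all genes and the second smaller. Below both were 1 replication gene and 6 mitosis genes, in each class a smaller share than over all genes. Both Med12cKO libraries were above both controls in 9 members, 7 of them replication genes (Ccne1, E2f1, Mcm2, Mcm3, Mcm6, Pcna and Rrm2) and 2 mitosis genes (Cdk1 and Cdc20), where 10.9% of all genes were. No member passed edgeR in these 4 libraries, over all genes or at an unadjusted p under 0.05, which 2.37% of all genes had (lowest unadjusted p = 0.052, Anln).

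When the 6-library fit held a thymus term, the errors of replication and mitosis genes fell and the fold changes stayed close. Each group holds 1 thymus library of 3, so the design lets the term move the fold changes little. Their closeness is thus no test of the thymus part. The median SE over the members went from 0.33 to 0.19, while that of the G1 genes went from 0.128 to 0.134. All 42 log2 fold changes were above 0, with 51.9% of all genes. Mcm2 (0.31, SE 0.13), Cdk1 (0.39, SE 0.16) and Ccnd2 (0.38, SE 0.16) had an unadjusted p under 0.05 there, 3 of 42 members, beside 2.53% of all genes that did so in the upward direction. None passed after adjustment over all genes (edgeR adjusted p = 0.9996). When 1 library was left out, the direction of the members depended on which one. Each such fit also holds unequal shares of thymus libraries in the 2 groups. Without Med12cKO 1 alone, which leaves a thymus library only among the controls, 9 of 42 were above 0, beside 49.1% of all genes, and the median was −0.13. Without control 2, the control with the lowest levels, 16 were above 0 and the median was −0.03. Without control 3, which leaves a thymus library only among the Med12cKO libraries, all 42 were above 0 and the median was 0.55. Without the pair, the median over the members was 0.24.

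Replication and mitosis genes were also compared within each library. Summed levels of the 27 mitosis genes were 2.14, 1.87 and 2.47 times those of the 11 replication genes in controls 1 to 3, and 2.15, 2.47 and 1.79 times in Med12cKO 1 to 3. The groups covered nearly the same range. In bulk tissue, a difference in the number of cycling cells and a difference in RNA per cell cannot be told apart.

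Per kilobase of exon, Cdk4 had the highest level of the members, 56.9 CPM per kb over the 6 libraries, followed by Ccnd1 at 29.3, Ccnd2 at 26.6 and Rrm2 at 26.03. Cyclin A2 (Ccna2) and cyclin B2 (Ccnb2) led the mitosis genes at 18.04 and 17.8 CPM per kb. The lowest were Cdc25c at 1.38, Mybl2 at 1.86 and Cenpf at 1.93 CPM per kb. The class medians were 27.98 CPM per kb for G1, 11.8 for replication and 7.01 for mitosis genes. Exon lengths are those of all annotated exons together, which understates genes with long exons that are seldom used.

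Further replication and mitosis genes had medians close to those of the members. Tested were 35 further replication genes, 45 further mitosis genes, 16 further G1 cyclins, kinases and E2F factors and 16 inhibitors and pocket proteins. None passed edgeR over all genes, beside 0.022% of all genes. Only 1 of them, Cdkn1a, had an unadjusted p under 0.05 in edgeR, a smaller share than the 3.78% of all genes. The log2 fold change was above 0 in 34 of the 35 replication genes and 40 of the 45 mitosis genes, beside 52.2% of all genes. Both medians were 0.19. These genes shared the library pattern of the members: 31 of the 35 and 29 of the 45 were highest in Med12cKO 1, beside 14.5% of all genes. In control 2, 23 and 33 were lowest, beside 13.8% of all genes. Their signs are thus not separate observations of the groups. Cdc45, a partner of the MCM helicase, had the largest value among the replication genes, 0.50 (SE 0.27), and measured 9.55, 9.62 and 16.9 CPM in controls and 21.2, 16.6 and 13.3 CPM in Med12cKO. The thymidine kinase gene Tk1 was at 0.33 (SE 0.17), and Mcm7 and Cdt1, both needed to license origins, were at 0.06 and 0.04. Cdc6, another licensing gene, was at 0.27 (SE 0.44). Of the mitosis genes Ndc80 and Kif4 were at 0.26 and 0.27, the abscission gene Cep55 at 0.08 and Cenpa, the histone of centromeres, at −0.12 (SE 0.25).

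The further G1 and E2F genes were mixed, with 5 of 16 above 0, beside 52.2% of all genes, and a median of −0.04. Cyclin D3 (Ccnd3) was at −0.06 (SE 0.17) and Cdk6 at −0.13 (SE 0.33), and the repressive factors E2f7 and E2f8 were at 0.14 and −0.11. Among inhibitors, Cdkn1a, which encodes the CDK inhibitor p21, was the gene with an unadjusted p under 0.05 (0.012; edgeR adjusted p = 0.828). It measured 42.9, 30.1 and 29.8 CPM in controls and 53.8, 52.0 and 42.9 CPM in Med12cKO, and its log2 fold change was 0.53 (SE 0.17). The highest control and the lowest Med12cKO library had the same level to 3 digits, although the groups did not overlap before rounding. Cdkn1a did not follow the thymus pair, with control 3 the lowest library. The inhibitors Cdkn1b and Cdkn1c were at −0.15 and 0.15, the pocket proteins Rb1, Rbl1 and Rbl2 at −0.11, 0.29 and −0.14, and Wee1, which holds CDK1 inactive, at 0.17. Cdkn2a and Cdkn2b did not pass the count filter, with at most 0.383 and 1.24 CPM in any library.

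Markers of other cells were set beside these values. The summed level of 8 fibroblast markers was 8607 to 9863 CPM in controls and 7351 to 11357 CPM in Med12cKO, with Med12cKO 3 the lowest library. That of 8 endothelial markers was 1673 to 1846 CPM in controls and 1553 to 1790 CPM in knockouts, and of 8 macrophage and myeloid markers 162 to 259 and 134 to 288 CPM. The 12 cardiomyocyte markers summed to 47872 to 61650 CPM in controls and 38165 to 49263 CPM in Med12cKO. In 3 of them, Myh7, Ryr2 and Pln, named after their values were seen, the Med12cKO libraries were lower without overlap, beside 3.64% of all genes. Skeletal muscle markers summed to 2096 to 2735 CPM in controls and 1814 to 2966.5 CPM in Med12cKO, with 2011.5 CPM in Med12cKO 1. By gene, most of them were highest in Med12cKO 1, the library with the highest replication and mitosis levels. Of 12 such markers 11 were highest there, and the 7 that passed the filter stood, by median log2 ratio to controls, at 2.44 in Med12cKO 1, 0.29 in Med12cKO 2 and −0.16 in Med12cKO 3. Myh8, a fetal muscle myosin, measured 11.9, 15.7 and 9.95 CPM in controls and 68.9, 17.96 and 10.98 CPM in Med12cKO. The groups did not overlap in 3 of the 12, Myh2, Myh4 and Tnnt3, all higher in Med12cKO, of which Myh2 and Myh4 did not pass the count filter. Among the 7 markers that passed, 1 was higher without overlap, beside 4.59% of all genes tested. Of the 7 erythroid markers in the table, 4 globin genes were listed at 0 in every library. The sum of the list was 50.5 to 97.5 CPM in controls and 40.3 to 83.7 CPM in Med12cKO. Its groups did not overlap in 1 gene, Slc4a1, lower in Med12cKO, beside 3.64% of all genes. The part of these differences in the cell cycle values was not tested.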

How the data were processed

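RNA-seq of 6 ventricle libraries was used, 3 per group, grouped by title. The authors deposited whole-number counts for each gene symbol. The submitters' processing notes name the build GRCm38 (mm10) and, as tools, featureCounts, edgeR 3.14.0 and TopHat2 2.0.0. Annotation and strand setting are not stated there, so genes on opposite strands that overlap are uncertain: 8 members share 10% or more of their exon bases with another gene (Ccnd1, Cdk4, Ccne2, Ccna2, Cdc25c, Kif20a, Prc1 and Ube2c). Counts of 3, the limit that a 0 allows, equal 0.286 to 0.345 CPM and cover counting error only.

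Genes were kept by filterByExpr (minimum count 10, total 15) and tested with edgeR 4.0.16's robust quasi-likelihood test in R 4.3.3 with TMM scaling and Benjamini-Hochberg adjustment over all genes at 0.05. Standard errors were derived from the F statistic, and 95% intervals use the fitted degrees of freedom. Ratios to the control mean use log2(CPM + 0.5). Alternatives were DESeq2 1.42.0, limma-voom (limma 3.58.1), other scalings and filters, blocks, and libraries left out. Libraries whose T cell list averaged 10 CPM or more were called thymus libraries. The fits were tested on simulated data, in which the noise of each gene was drawn independently, unlike the shared library pattern of the members. Exon lengths and positions are from GENCODE M21 (GRCm38).

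Members, lists and alternatives were chosen with earlier results of these data known. Named genes were the 42 members, Med12, 20 fixed genes of the other cell cycle lists, any called gene of them (none was) and defining T cell markers. Cdkn2a and Cdkn2b were named as the listed genes under the filter, and the muscle and erythroid markers after their values were seen. The labels do not tie libraries to single animals, and p-values reflect the variation among these samples, which may be technical. Libraries of 1 group differed by more than sampling noise, with a chi-square of 14.5 to 29.3 for each degree of freedom.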

Additional observations from a re-analysis of the deposited data

How the results depend on the processing

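No member was called under any of the 17 alternatives, whose lowest member adjusted p was 0.622 (Ccnd2, edgeR without Med12cKO replicate 3). The number of members above 0 was 38 to 42 under the 11 alternatives that left out no single library, and 9 to 42 when 1 was left out. The low values were 9 without Med12cKO replicate 1 and 16 without control replicate 2. The mitosis median ran from −0.17 without Med12cKO replicate 1 to 0.61 without control replicate 3. In the same fits the replication median ran from −0.04 to 0.53. The class medians moved by less than the spread of library medians within the groups in each fit. That spread includes the thymus libraries, so this does not show that the medians were stable. Med12 had an adjusted p of 0.0246 in DESeq2. Over all genes the main test called 1 higher and 2 lower. DESeq2 called 32 higher and 33 lower, DESeq2 size factors in edgeR 0 higher, library totals 2 higher, the 4 libraries with letter I in their description 0 higher and 1 lower, the thymus term 2 higher, and the 4 libraries without thymus transcripts 2 higher. Leaving out 1 library gave 0 to 1 higher and 1 to 2 lower. With the replicate number as a block 0 genes were called higher and 42 members were above 0, with a median of 0.22. Deviations from the group means correlated at −0.325, 0.46 and −0.357 between same-numbered libraries, and at 0.727 between the 2 thymus libraries. With 3 libraries a group, 1 of them a thymus library, this cannot tell whether the numbers reflect a pairing. The spread between libraries limits small changes: the median 95% interval of a member ran from 0.648-fold to 1.95-fold, and the lowest member count was 46.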
